A study of Mus musculus with 12 samples.

Results

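Effector CD4+ T cells of wild-type (WT) mice were set against naive CD4+ T cells of WT mice. The comparison used 6 of the 12 RNA-seq libraries of the series, 3 of each population, and the other 6 came from naive and effector cells of Rinl-KO mice. Both populations were sorted by flow cytometry from spleen and peripheral lymph nodes: naive cells by CD62L+CD44lo and effector cells by CD62L-CD44hi surface staining. The sources used here do not give strain, age, sex, treatment or any pooling of animals. Whether the 3 libraries of a population are from different mice is not stated either, and the p-values therefore cover the spread among these libraries, which may be technical.

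A naive CD4+ T cell has not met its antigen and circulates through blood, spleen and lymph nodes, guided by CCR7 and the sphingosine 1-phosphate receptor S1PR1. After antigen contact, CD4+ T cells divide, take up helper programmes run by lineage transcription factors, exchange lymph node homing receptors for receptors of inflamed tissue, and raise CD44, a receptor for hyaluronan. The CD62L-CD44hi gate of an animal therefore holds a mixture of effector, memory, follicular helper, regulatory and innate-like CD4+ T cells, and a sorted population is read here as a whole.

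The 3 naive libraries held 12409965 to 19584111 counts and the 3 effector libraries 12893396 to 16428862. The first principal component of the 6 libraries held 89.8% of the variance and separated the populations, and Pearson's r between libraries of one population, taken over genes, was 0.995 to 0.997. Counts are given below as CPM (counts scaled to the library size by TMM), for libraries 1, 2 and 3 of naive and 4, 5 and 6 of effector cells in that order. Genes of CD4 T cell identity changed by small amounts. Of 16, 8 rose and 2 fell, beside 30.2% higher and 25.9% lower of all tested genes by the test described below. None changed by more than 2-fold, and log2 fold changes stayed between -0.42 (Cd247) and 0.39 (Thy1). Cd4 itself stood at 982, 986 and 1019 CPM in naive and 1011, 935 and 1026 CPM in effector cells. The gate was visible in Cd44, which is a check of the labels and no finding: it stood at 19.3, 17.2 and 19.98 CPM in naive and 259, 256 and 254 CPM in effector cells. Rinl, the gene knocked out in the other animals, stood at 298, 299 and 285 CPM in WT naive and 437, 451 and 463 CPM in WT effector cells.

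Of 15905 genes tested, 8933 (56.2%) passed the test against no change (edgeR's quasi-likelihood test, Benjamini-Hochberg adjusted p under 0.05), 4808 higher (30.2%) and 4125 lower (25.9%) in effector cells. Most of these changes were small, since 68.5% of the called genes had a fitted change under 2-fold, and the median log2 fold change over all tested genes was 0.0064. Counts in the gene lists below stand beside these 30.2% higher and 25.9% lower of all tested genes. A second test asked whether a change exceeded 2-fold (edgeR's glmTreat, the over 2-fold test below). It was passed by 1990 genes (12.5%), of which 1673 were higher (10.5%) and 317 lower (1.99%) in effector cells. The ± after a log2 fold change, or after a difference of such changes, is a standard error derived from the F statistic of the quasi-likelihood test. In bulk RNA, fewer cells that express a gene and less of its RNA per cell cannot be told apart, here and in every result that follows.

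Large changes were nearly all rises. A fitted change of at least 4-fold was called in 1384 genes higher and 170 lower, of at least 16-fold in 680 higher and 19 lower, and of at least 64-fold in 336 higher and 3 lower. At 128-fold or more, 187 genes were higher and 0 lower. Most of the rises started near the detection limit: of the 1673 genes higher by more than 2-fold, 1079 had a naive mean under 1 CPM, and their medians were 0.36 CPM in naive and 5.21 CPM in effector cells. The 317 genes lower by more than 2-fold started from a median of 12 CPM and reached 3.0 CPM, and 114 of them fell below 1 CPM. A stricter rule asked for all 3 libraries under 0.5 CPM in one population and all 3 above 20 CPM in the other. By it, 29 genes were switched on in effector cells and 0 were switched off. Gene models without a name, antigen receptor segments and Y-linked genes were left out of these 2 counts.

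**Figure D1:**
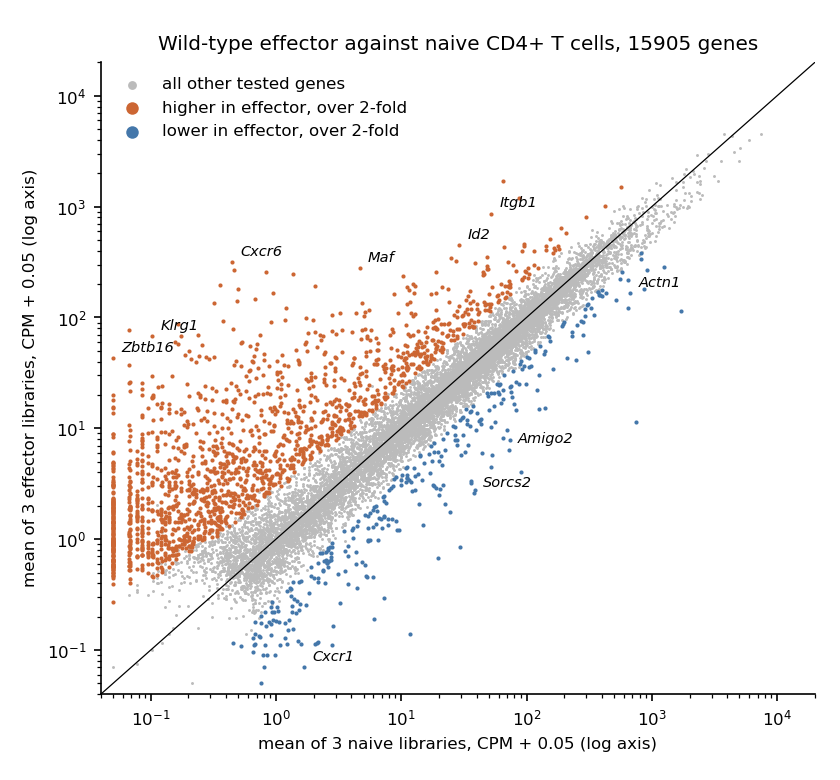
Mean CPM plus 0.05 of 3 naive libraries (x, log axis) against 3 effector libraries (y, log axis) for 15905 tested genes, with the 1673 genes higher (orange) and 317 lower (blue) by the over 2-fold test and the line of equal level. Risen genes reach far above the line at low naive levels, with 680 at 16-fold or more, and 19 fallen genes lie that far below it.

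The losses of effector cells began with genes of the naive state. All 21 tested genes of a naive-restricted list fell, 17 of them by more than 2-fold, with a median log2 fold change of -2.11. Of all tested genes 25.9% were lower. The list was chosen with earlier results of these data known, so its fall describes these genes and is no test. Atp1b1, a subunit of the sodium pump, stood at 139.9, 138 and 141 CPM in naive and 18.7, 13.5 and 13.8 CPM in effector cells (log2 fold change -3.18 ± 0.09, adjusted p = 3.2e-17). Actn1, an actin crosslinker of adhesion sites, stood at 654, 703 and 665 and 168, 156 and 171 CPM (log2 fold change -2.03 ± 0.07, adjusted p = 2.2e-14). The libraries of the populations did not overlap in either gene, as was the case for 61.5% of all tested genes (effector all above in 32.4%, all below in 29.1%). St8sia6, a sialic acid transferase, went from 212 to 43.2 CPM, log2 -2.29, and Tgfbr3, the TGF-beta coreceptor betaglycan, from 164 to 34 CPM, log2 -2.27. At the weak end of the list Il7r, the receptor of the survival cytokine IL-7, was 686 ± 79.7 CPM in naive and 543 ± 59.1 CPM in effector cells (mean ± SD of 3 libraries). Its log2 fold change was -0.34 with a standard error of 0.10 (adjusted p = 0.0099).

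Among the 20 largest falls were several genes outside that list. Sorcs2, a sorting receptor of the VPS10 family on chromosome 5, 36017180 to 36398139, minus strand (GRCm38), was at 37.4, 31.2 and 46.3 CPM in naive and 2.83, 2.76 and 2.08 CPM in effector cells (log2 fold change -3.90 ± 0.16, adjusted p = 2.1e-13). Acvrl1, a type I receptor for BMP ligands, was at 49.7, 55.8 and 51.4 and 4.36, 4.03 and 4.98 CPM (log2 fold change -3.54 ± 0.09, adjusted p = 1.3e-19). Amigo2, an adhesion protein with leucine-rich repeats, was at 81.1, 68.9 and 68.2 and 6.2, 7.69 and 5.22 CPM (log2 fold change -3.53 ± 0.10, adjusted p = 2.9e-17). In each of these genes every effector library lay far below every naive library. Other genes among these falls were Cnn3, an actin-binding calponin (from 35.9 to 3.16 CPM, log2 -3.54), Arhgap29, an activator of small GTPases (from 35.8 to 3.33 CPM, log2 -3.44), and Myo10, a filopodial myosin (from 52.7 to 5.71 CPM, log2 -3.21). Adcy6, an adenylyl cyclase, went from 126 to 15 CPM, log2 -3.07, and Vipr1, the receptor for vasoactive intestinal peptide, from 311 to 48.7 CPM, log2 -2.68.

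The largest rises from near zero were read from counts, because a fitted fold change of such a gene depends on the prior count. Zbtb16, encoding the innate-like T cell factor PLZF, had 0 counts in naive and 1965 counts over the effector libraries, at least 709-fold higher against 3 counts over the naive group. Itga1, the alpha 1 integrin that binds collagen, went from 0 to 921 counts, at least 327-fold higher, and Cebpa, a factor best known from myeloid cells, from 0 to 715 counts, at least 254-fold higher. In all, 172 called genes had 0 counts in every naive library, and 1 called gene, B230118H07Rik, had 0 counts in every effector library and 34 in naive cells. Klrg1, an inhibitory lectin receptor on chromosome 6, 122270596 to 122282882, minus strand (GRCm38), had 3 naive and 3156 effector counts, a ratio of 1123 (95% counting interval 384 to 5448). Cpne7, a calcium-binding copine, rose from 0.0175 to 37.5 CPM, with a ratio of 1849.7 (95% counting interval 332 to 73102), and Arnt2, a bHLH-PAS factor, from 0.0179 to 26 CPM, with a ratio of 1314 (95% counting interval 235 to 51939). Soat2, which esterifies cholesterol, rose from 0.0175 to 25.5 CPM, and Sulf2, an extracellular sulfatase, from 0.0351 to 25.8 CPM. These intervals and bounds cover counting error only.

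Transcription factors moved in opposite directions by class. Of 47 tested factors listed for effector states, 44 rose, 35 by more than 2-fold, 0 fell and 3 were not called. Their median log2 fold change was 2.19, and 30.2% of all tested genes were higher. This list too was chosen with earlier results of these data known, so the count is a description and no test. Maf, which drives IL-4, IL-10 and IL-21 programmes, stood at 3.16, 3.87 and 6.8 CPM in naive and 298, 263 and 277 CPM in effector cells (log2 fold change 6.01 ± 0.19, adjusted p = 1.1e-09). Id2, an inhibitor of E proteins, stood at 33.7, 23.7 and 29.7 and 410.0, 491 and 444 CPM (log2 fold change 3.95 ± 0.12, adjusted p = 1.0e-10). In both genes every effector library lay far above every naive library.

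Factors of several helper lineages were present at once in the effector libraries. Rora, a nuclear receptor of Th17 and other effector cells, went from 12.8 to 192 CPM, log2 3.92. Bhlhe40, a factor of cytokine-producing helper cells, went from 1.16 to 123 CPM, log2 6.76, Zfp683 (Hobit), a factor of resident lymphocytes, from 0.86 to 91.1 CPM, log2 6.67, and Tox2, a factor of follicular helper cells, from 0.179 to 40.02 CPM, log2 7.74. Ikzf2 (Helios), found in many regulatory T cells, was already at 24.4, 24 and 26.8 CPM in naive cells and reached 395, 293 and 339 CPM (log2 fold change 3.78 ± 0.14, adjusted p = 2.9e-09). Zeb2, a repressor of terminal effector cells, was uneven among effector libraries at 9.46, 16.1 and 28.9 CPM, against 0, 0.161 and 0.498 CPM in naive cells (log2 fold change 6.59 ± 0.77, adjusted p = 6.3e-05).

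Of 24 factors of naive and resting T cells, 17 fell, 5 of them by more than 2-fold, and 4 rose, with a median log2 fold change of -0.57. Bach2, a repressor that holds back effector genes, went from 293, 264 and 291 CPM to 70.8, 64.5 and 71.6 CPM (log2 fold change -2.03 ± 0.06, adjusted p = 1.5e-18). Foxp1, a factor of T cell quiescence, went from 384 to 160.5 CPM, log2 -1.26, and Sox4 from 18.2 to 3.0 CPM, log2 -2.64. Tcf7, encoding TCF1, remained one of the most abundant factors: it stood at 2408, 2472 and 2422 CPM in naive and 1219, 1141 and 1181 CPM in effector cells (log2 fold change -1.04 ± 0.05, adjusted p = 3.4e-15). Klf2, which drives S1pr1, was lower by a smaller amount, 363 ± 37.9 against 212 ± 20.04 CPM (log2 fold change -0.77 ± 0.10, adjusted p = 4.0e-05). Of the KLF family 4 of 12 were higher and 5 lower, where 30.2% and 25.9% of all tested genes were: Klf7 went from 100.9 to 44 CPM, log2 -1.19, Klf12 from 0.316 to 7.27 CPM, log2 4.56 and Klf9 from 3.08 to 8.18 CPM, log2 1.41.

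**Figure D2:**
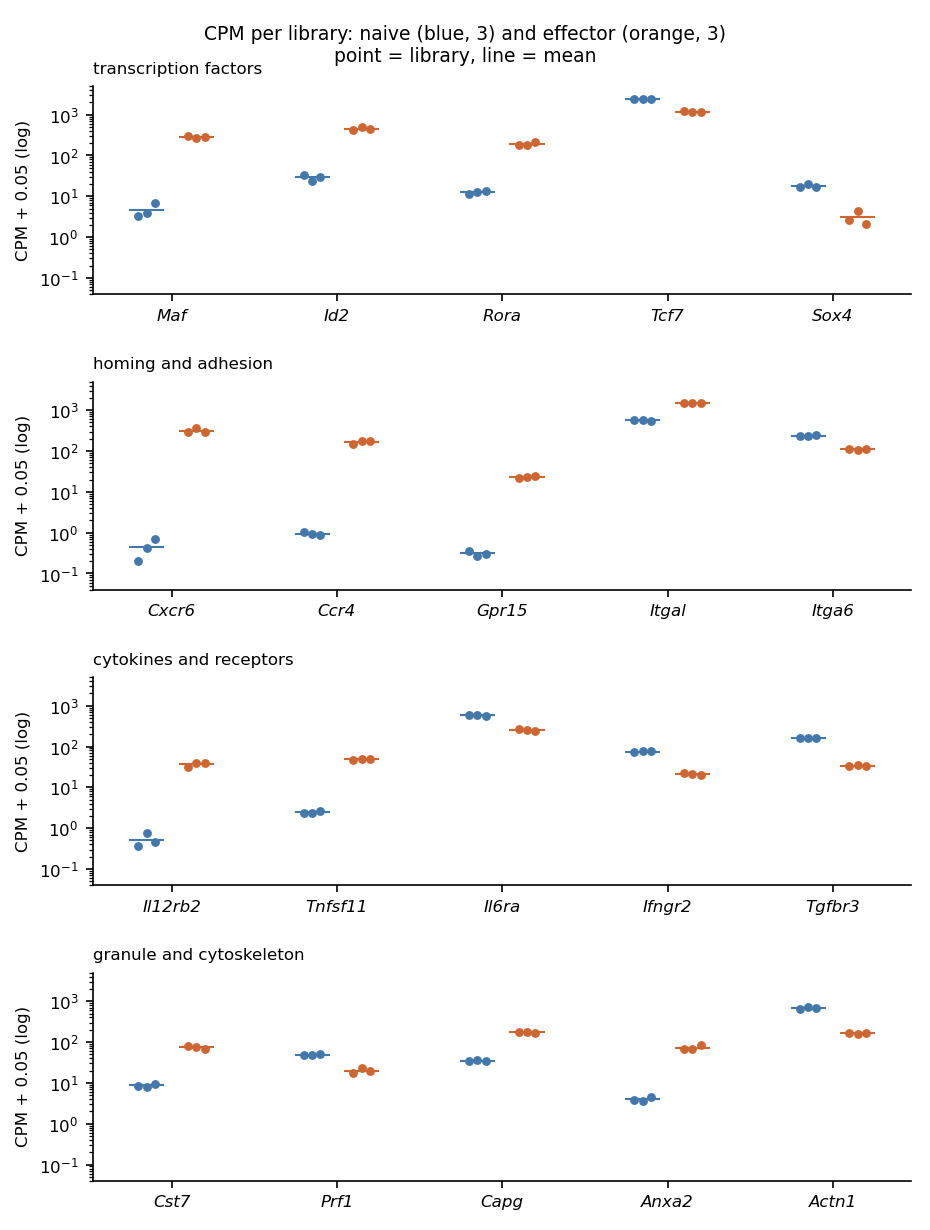
CPM plus 0.05 (y, log axis) of 20 genes in each of 3 naive (blue) and 3 effector (orange) libraries, with lines for means, in panels of transcription factors, homing and adhesion genes, cytokines with receptors, and granule with cytoskeletal genes. In each of the 20 genes, which were chosen for their change, the libraries of the populations do not overlap, as in 61.5% of all tested genes.

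Receptors that steer migration were exchanged. Of 30 tested chemokine, sphingosine and related receptors, 22 rose and 4 fell, with a median log2 fold change of 4.25. Cxcr6, the receptor of CXCL16 used in liver and other tissues (chromosome 9, 123806475 to 123811760, plus strand, GRCm38), stood at 0.158, 0.376 and 0.663 CPM in naive and 294, 361 and 289 CPM in effector cells (log2 fold change 9.73 ± 0.32, adjusted p = 4.2e-09). Cxcr3, the receptor of interferon-induced chemokines, stood at 0.158, 0.269 and 0.498 and 218, 207 and 169.5 CPM (log2 fold change 9.42 ± 0.21, adjusted p = 5.7e-14). Ccr2, a receptor of inflamed tissue, stood at 0.316, 0.269 and 0.746 and 156, 181 and 207 CPM (log2 fold change 8.79 ± 0.25, adjusted p = 4.8e-11). These were among the largest rises of the data set by the naming rule, and their naive levels lay under 1 CPM in every library.

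Receptors for particular tissues rose as well. Ccr4, a skin and lung homing receptor, went from 0.896 to 165 CPM, log2 7.5, Gpr15, a receptor for the colon, from 0.26 to 23 CPM, log2 6.42, and Ccr9, a receptor for the small intestine, from 6.04 to 38.4 CPM, log2 2.67. Ccr10, a skin homing receptor with 1 naive count, rose from 0.0179 to 9.53 CPM at a ratio of 468 (95% counting interval 83.5 to 18507). S1pr1, the receptor for exit from lymph nodes, fell from 828, 827 and 794 CPM to 342, 342 and 337 CPM (log2 fold change -1.26 ± 0.04, adjusted p = 6.9e-18). Its relatives went other ways, since S1pr2 went from 7.16 to 36.7 CPM, log2 2.35, and S1pr5 rose from 0.0553 to 19.2 CPM at a ratio of 474 (95% counting interval 131 to 3919). S1pr4 stood at 229 ± 22.2 CPM in naive and 216 ± 20.8 CPM in effector cells and was not called (adjusted p = 0.43). Cxcr1, at 0.947, 1.77 and 2.16 CPM in naive cells, was at 0, 0 and 0.0593 CPM in effector cells.

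Among integrins and other adhesion molecules 21 of 33 rose and 9 fell, a share of falls close to the 25.9% of all tested genes. Itgae, the alpha E chain that binds E-cadherin on epithelium, stood at 2.05, 1.13 and 2.57 CPM in naive and 109, 78.1 and 100.04 CPM in effector cells (log2 fold change 5.70 ± 0.24, adjusted p = 8.1e-09). Itgal, the alpha chain of LFA-1, stood at 583, 563 and 548 and 1494, 1469 and 1535 CPM (log2 fold change 1.41 ± 0.04, adjusted p = 3.3e-18), and Itgb8, a chain that activates TGF-beta, went from 0.566 to 33.9 CPM, log2 5.90. Falls included Itga6, the laminin receptor chain, from 233 to 110.1 CPM, log2 -1.08, and Pecam1, an adhesion receptor of leukocytes and endothelium, from 372 to 170.4 CPM, log2 -1.13. Selplg, which carries the ligands of selectins, stood at 641 ± 14.5 against 623 ± 35.4 CPM and was not called (adjusted p = 0.49).

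Several enzymes that decorate that scaffold were higher in effector cells. Fut7, the fucosyltransferase of selectin ligands, went from 0.575 to 9.42 CPM, log2 4.04. Gcnt1, which builds core 2 O-glycans, rose from 0.0452 to 15.3 CPM at a ratio of 381 (95% counting interval 105 to 3153), and Chst2, a sulfotransferase, from 0.225 to 43.6 CPM, log2 7.57. Over the whole list of glycan enzymes 28 of 47 rose and 9 fell. The falls held sialic acid genes, among them Cmah, which makes N-glycolylneuraminic acid, from 348 to 106 CPM, log2 -1.71, and St8sia1, a ganglioside synthase, from 230.3 to 68.1 CPM, log2 -1.76.

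Cytokine genes were uniformly higher where they were called. Of 35 tested, 30 rose, 25 by more than 2-fold, and 0 fell. Tnfsf14, encoding LIGHT, stood at 0.736, 0.322 and 0.166 CPM in naive and 74.3, 82.5 and 79 CPM in effector cells (log2 fold change 7.45 ± 0.14, adjusted p = 5.2e-22), and Tnfsf11, encoding RANKL, at 2.37, 2.26 and 2.57 and 47.7, 50.2 and 49.5 CPM (log2 fold change 4.37 ± 0.11, adjusted p = 3.8e-20). Penk, the precursor of enkephalins, stood at 0.579, 0.269 and 0.58 and 65.3, 54.0 and 58.4 CPM (log2 fold change 6.98 ± 0.16, adjusted p = 2.2e-20). Xcl1, which attracts cross-presenting dendritic cells, went from 0.146 to 25.3 CPM, log2 7.62, and Csf1 from 0.972 to 40.6 CPM, log2 5.45.

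Cytokines of helper lineages stayed at low levels in these cells taken ex vivo. Ifng was at 7.06, 14 and 11.1 CPM in effector cells, and Il4 had 0 naive and 277 effector counts, at least 99.3-fold higher. Il10 had 0 naive and 150 effector counts, and Il21 3 and 389. Il17a had 2 counts, Il13 had 9, Il22 had 7 and Il5 had 0 over all 3 effector libraries, too few to be tested. The constitutive cytokine Il16 (484 ± 11.2 against 495 ± 13.3 CPM) and Cd40lg (83.2 ± 5.50 against 89.9 ± 3.41 CPM) were not called (adjusted p = 0.57 and 0.094).

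Cytokine receptors were sorted into gains and losses. Of 36 tested, 24 rose and 11 fell, with 1, Ifnar1, not called, beside 30.2% higher and 25.9% lower of all tested genes. Il18rap, the second chain of the IL-18 receptor, stood at 1.31, 1.34 and 1.33 CPM in naive and 167, 268 and 311 CPM in effector cells (log2 fold change 7.54 ± 0.40, adjusted p = 2.9e-07), and its partner Il18r1 at 95, 87.4 and 92 and 355, 389 and 453 CPM (log2 fold change 2.13 ± 0.08, adjusted p = 5.9e-13). Il1rl1, the receptor of IL-33, went from 0.408 to 37.1 CPM, log2 6.65, Il12rb2, the inducible IL-12 receptor chain, from 0.476 to 36.8 CPM, log2 6.23, and Il9r, the IL-9 receptor, from 0.19 to 69.5 CPM, log2 8.53. Il1r2, a decoy for IL-1, rose from 0.053 to 18.9 CPM, and Il1r1, which signals, from 0.0354 to 7.17 CPM.

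On the losing side were chains of the IL-6, IL-4 and interferon gamma receptors. Il6ra stood at 578, 592 and 566 CPM in naive and 273.6, 256 and 242 CPM in effector cells (log2 fold change -1.17 ± 0.05, adjusted p = 1.8e-16), and Il6st, its signalling partner gp130, went from 530.2 to 321 CPM, log2 -0.72. The chains of the interferon gamma receptor parted: Ifngr2 fell from 72.7, 76.1 and 75.7 to 22.5, 21.6 and 19.6 CPM (log2 fold change -1.82 ± 0.06, adjusted p = 2.7e-17), while Ifngr1 rose from 123, 113 and 126 to 218, 216 and 229.7 CPM (log2 fold change 0.88 ± 0.05, adjusted p = 8.9e-14). The common gamma chain Il2rg changed by 0.13 on the log2 scale, from 323 to 354 CPM, although it passed the test against no change (adjusted p = 0.014).

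Costimulatory and inhibitory receptors rose as a group, 42 of 52, with 3 lower. Tigit, an inhibitory receptor for nectin-like ligands, stood at 0.105, 0.161 and 0.0829 CPM in naive and 104.1, 74.8 and 84.6 CPM in effector cells (log2 fold change 9.43 ± 0.48, adjusted p = 1.2e-07). Lag3, an inhibitory relative of CD4, stood at 0.684, 0.43 and 0.746 and 56.1, 39 and 39.4 CPM (log2 fold change 6.2 ± 0.53, adjusted p = 8.7e-06). Activating receptors rose beside them, with Tnfrsf4 (OX40) going from 17.4 to 161 CPM, log2 3.22, Tnfrsf9 (CD137) from 11 to 134 CPM, log2 3.60, and Cd83 from 2.73 to 106 CPM, log2 5.28. Cd27, a receptor already high in naive cells, was 346 ± 10.1 against 325 ± 21 CPM and was not called (adjusted p = 0.12).

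Granule genes were higher for 19 of 24 and lower for 2. Prf1, encoding the pore protein perforin, was one of the falls: it stood at 47.1, 49.3 and 50.1 CPM in naive and 17.1, 23 and 19.1 CPM in effector cells (log2 fold change -1.31 ± 0.12, adjusted p = 8.6e-08). Gzmb, encoding the protease granzyme B that enters cells with perforin, rose from 0.263, 0.591 and 0.415 to 18, 17 and 20.1 CPM (log2 fold change 5.42 ± 0.23, adjusted p = 2.6e-15). Perforin and granzyme transcripts thus moved in opposite directions in these libraries. Fgl2, a secreted inhibitory protein, went from 0.159 to 42.3 CPM, log2 7.82, Stx11, a fusion protein of granule release, from 2.06 to 54.3 CPM, log2 4.72, Cst7, an inhibitor of cathepsins, from 8.61 to 74.2 CPM, log2 3.12, and Srgn, the granule proteoglycan, from 144 to 409 CPM, log2 1.51.

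S100 and annexin genes, which bind calcium at membranes, rose in 14 of 17 cases and fell in 0. S100a4 stood at 0.105, 0.215 and 0 CPM in naive and 53.2, 57.9 and 70.7 CPM in effector cells (log2 fold change 8.89 ± 0.22, adjusted p = 5.0e-18), Anxa2 at 3.73, 3.65 and 4.56 and 68, 66.4 and 85.7 CPM (log2 fold change 4.23 ± 0.12, adjusted p = 2.2e-17), and Anxa1 went from 0.19 to 14.5 CPM, log2 6.26. Anxa5 was 74.8 ± 0.9 against 73.4 ± 4.25 CPM and was not called (adjusted p = 0.7). Among cytoskeletal genes 34 of 56 rose and 12 fell. Ahnak, a giant scaffold protein that pairs with S100 and annexin proteins, rose from 71.3, 65.8 and 58.2 to 1654, 1476 and 1984 CPM (log2 fold change 4.70 ± 0.15, adjusted p = 9.7e-10), and Capg, an actin capper, went from 35.2 to 173 CPM, log2 2.29. Actb stayed at 4366 ± 253 against 4361 ± 216 CPM and was not called (adjusted p = 0.98).

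Genes of T cell receptor signalling mostly changed by less than 2-fold. Of 54 genes, 30 rose and 16 fell, beside 30.2% higher and 25.9% lower of all tested genes. By more than 2-fold, 8 rose and 1, the kinase Tec, fell. Lat, the membrane scaffold, was 687 ± 23.9 against 689 ± 22.5 CPM, and the kinase Lck 1064 ± 31.8 against 1045 ± 23.5 CPM, neither of them called (adjusted p = 0.96 and 0.63). Ptpn13, a tyrosine phosphatase, stood at 5.31, 4.19 and 5.64 CPM in naive and 117, 99.4 and 117 CPM in effector cells (log2 fold change 4.48 ± 0.10, adjusted p = 3.8e-18), and Ptprj, a receptor phosphatase, at 2.26, 1.56 and 2.90 and 68.6, 56.1 and 64.6 CPM (log2 fold change 4.87 ± 0.13, adjusted p = 1.5e-18). The inhibitory adaptors Sla (from 177 to 445 CPM, log2 1.33) and Lax1 (from 72.4 to 215 CPM, log2 1.57) were higher, and Dgka, which removes diacylglycerol, went from 1986 to 989 CPM, log2 -1.01.

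Lists of feedback genes downstream of the receptor held rises, falls and many genes that were not called, beside 30.2% higher and 25.9% lower of all tested genes. In the MAP kinase list 10 of 23 rose and 4 fell, 9 were not called, and the ERK phosphatases Dusp4 (from 2.09 to 17.8 CPM, log2 3.13), Dusp5 (from 27.6 to 68.7 CPM, log2 1.32) and Dusp6 (from 14.1 to 44.7 CPM, log2 1.67) were among the rises. Of the G protein list 13 of 27 rose, 6 fell and 8 were not called, with Rgs1, which damps chemokine receptors, at 8.63, 7.52 and 8.13 CPM in naive and 81.1, 68.4 and 59.0 CPM in effector cells (log2 fold change 3.10 ± 0.14, adjusted p = 9.0e-11), Rgs16 going from 0.97 to 31.9 CPM, log2 5.04 and Gna15 from 0.754 to 47.2 CPM, log2 5.94. The abundant Gnai2, the G protein of chemokine receptors, was 659 ± 24.8 against 673 ± 8.75 CPM and was not called (adjusted p = 0.58).

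Ion transport and purine genes followed. Of 36 calcium and potassium channel genes 22 rose and 7 fell. Atp2b4, a calcium pump of the plasma membrane, rose from 2.31, 1.83 and 1.91 to 190.5, 172 and 209 CPM (log2 fold change 6.55 ± 0.12, adjusted p = 1.2e-17), and Kcna3, a voltage-gated potassium channel, went from 30.5 to 102 CPM, log2 1.74, whereas the calcium sensor Stim1 was 189 ± 3.65 against 183.4 ± 7.52 CPM and was not called (adjusted p = 0.41). Of 17 purine receptor and ectoenzyme genes 12 rose and 3 fell. Nt5e (CD73), which makes adenosine, stood at 51.5, 43 and 50.9 CPM in naive and 290.2, 265 and 261 CPM in effector cells (log2 fold change 2.49 ± 0.10, adjusted p = 3.6e-11). Adora2a, an adenosine receptor, went from 19 to 80.2 CPM, log2 2.09, and Cd38, which consumes NAD, from 0.523 to 29.4 CPM, log2 5.85.

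Survival genes of one family moved in opposite directions. Bcl2, the main survival protein of resting T cells, fell from 318, 299 and 307 CPM to 145, 122 and 130.1 CPM (log2 fold change -1.22 ± 0.05, adjusted p = 3.1e-15). Bcl2l1, encoding its relative BCL-XL, rose from 17.2, 21.4 and 18.8 to 51.8, 60.7 and 54.7 CPM (log2 fold change 1.54 ± 0.08, adjusted p = 1.2e-13). The A1 genes Bcl2a1b (from 3.28 to 28.6 CPM, log2 3.13) and Bcl2a1d (from 2.72 to 38.6 CPM, log2 3.80) were higher too, but they are near-identical copies and the split of reads between them is uncertain. Pmaip1 (Noxa), which opposes these proteins, went from 1.5 to 15.4 CPM, log2 3.37. The inflammatory caspases Casp1 (from 5.32 to 67.5 CPM, log2 3.63) and Casp4 (from 3.30 to 48.9 CPM, log2 3.92) rose. Over the whole list 24 of 37 rose and 6 fell.

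Cell cycle genes rose from low levels. Of 39 G2 and M phase genes 34 rose, 23 by more than 2-fold, with a median log2 fold change of 1.96, and of 40 G1 and S phase genes 23 rose with a median of 0.40. Racgap1, needed for cytokinesis, stood at 8.78, 7.57 and 8.04 CPM in naive and 39.7, 40.1 and 45.1 CPM in effector cells (log2 fold change 2.36 ± 0.09, adjusted p = 7.1e-17), Kif11, a spindle motor, went from 1.03 to 7.19 CPM, log2 2.83, and Tk1, a thymidine kinase of S phase, from 0.93 to 14.8 CPM, log2 3.97. Smc4, a condensin subunit and the most abundant gene of the G2 and M list in naive cells, fell (from 722 to 440.0 CPM, log2 -0.71). The summed level of that list was 919 to 969 CPM in naive and 944 to 1076 CPM in effector libraries.

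Inhibitors of division did not fall together, with 15 of 35 lower and 9 higher, beside 25.9% lower and 30.2% higher of all tested genes. Tsc22d3 (GILZ), a glucocorticoid-induced gene, fell from 326, 284 and 373 to 119, 108 and 138 CPM (log2 fold change -1.42 ± 0.11, adjusted p = 6.4e-07). Rbl2, the pocket protein p130 of resting cells, rose from 170.0, 164 and 176 to 397, 403 and 419 CPM (log2 fold change 1.26 ± 0.05, adjusted p = 6.3e-17), and Cdkn2c, the CDK inhibitor p18, went from 3.25 to 15.5 CPM, log2 2.25. Cdkn1b, the inhibitor p27, was 234 ± 12 against 233 ± 1.36 CPM and was not called (adjusted p = 0.98).

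Transcripts of ribosomal proteins were lower in effector cells. All 78 tested genes of cytosolic ribosomal proteins fell, with a median log2 fold change of -0.77, and 1 of them, Rps19, passed the over 2-fold test (from 819 to 381 CPM, log2 -1.11). The changes were even in size, from -1.11 to -0.35 on the log2 scale. Together they took 7.03% ± 0.192 of counts in naive and 4.28% ± 0.262 in effector libraries (SD, n = 3; exact two-sided permutation p = 0.1, the smallest that 3 against 3 libraries allow). Eef1a1, the elongation factor that delivers tRNA, was the most abundant gene by CPM in naive cells and went from 7065, 7474 and 7984 to 4459, 4668 and 4509 CPM (log2 fold change -0.72 ± 0.05, adjusted p = 3.8e-12). Ribosomal protein genes have many pseudogene copies, and how reads were split between them is uncertain. Over all 2652 tested pseudogenes, of whatever parent gene, 822 were lower and 276 higher.

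Mitochondrially encoded transcripts were lower, and most nuclear genes of the same complexes were not called. All 9 tested mitochondrial mRNAs fell, with a median of -0.59, and took 1.52% ± 0.120 of counts in naive and 1.10% ± 0.0807 in effector libraries (SD, n = 3; exact permutation p = 0.1). mt-Co1, a subunit of cytochrome oxidase, stood at 5991, 5501 and 6318 CPM in naive and 4218, 3707 and 4105 CPM in effector cells (log2 fold change -0.57 ± 0.07, adjusted p = 4.2e-06). The other 4 mitochondrial mRNAs of the list, among them mt-Co2 with 0 counts, were too low to be tested, while copies such as Gm10925 held 4956 ± 372 CPM in naive cells, so the counting of these genes is uncertain. Of 76 nuclear oxidative phosphorylation genes, 17 rose, 8 fell and 51 were not called, and their share of counts was 0.564% ± 0.0102 against 0.592% ± 0.0323 (SD, n = 3; exact permutation p = 0.3). Single libraries moved those counts: 10 rose without effector library 5, and 5 fell without naive library 1 and 4 without effector library 6.

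The libraries also differed in how counts were spread over genes. The 10 most abundant genes of each library took 4.49% ± 0.151 of counts in naive and 3.63% ± 0.0412 in effector cells, the 100 most abundant 17.8% ± 0.260 and 14.9% ± 0.0828, and the 1000 most abundant 51.8% ± 0.206 and 47.5% ± 0.157 (SD, n = 3; exact permutation p = 0.1 each). Per length of transcript, on the authors' FPKM scale, Tpt1, a translationally controlled protein, was at 2624 in naive and 1326 in effector cells, B2m at 2179.8 and 2539.5, and H2-K1, a class I histocompatibility gene, at 2253 and 2701. Effector libraries had 20669 to 21798 genes with a count and naive libraries 19634 to 20659, at total counts that overlap.

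**Figure D3:**
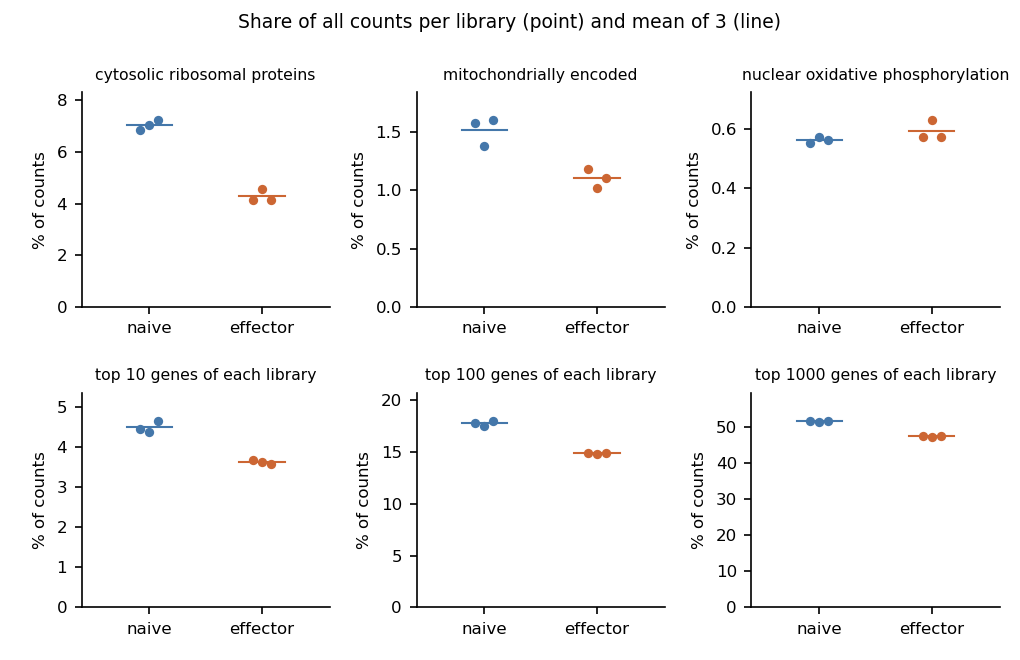
Percent of all counts (y, from 0) taken by 3 gene classes and by the 10, 100 and 1000 most abundant genes in each of 3 naive (blue) and 3 effector (orange) libraries, with lines for means. Ribosomal protein and mitochondrial shares are lower in all 3 effector libraries, 4.28% against 7.03% and 1.10% against 1.52% on average, while the nuclear oxidative phosphorylation shares lie close together.

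Metabolic genes showed a few large changes within mostly small ones. Of 36 glycolytic and pentose phosphate genes 22 rose, 4 by more than 2-fold. Slc2a3, the glucose transporter GLUT3, stood at 51.1, 48.4 and 49.2 CPM in naive and 114, 116 and 121 CPM in effector cells (log2 fold change 1.24 ± 0.06, adjusted p = 2.3e-15), and Slc16a3, a lactate exporter, went from 1.84 to 12.3 CPM, log2 2.73. Pdk1, which inhibits pyruvate dehydrogenase, fell from 537, 523 and 505 to 149.5, 147 and 138 CPM (log2 fold change -1.85 ± 0.05, adjusted p = 6.1e-19). Acsbg1, an acyl-CoA synthetase found in regulatory T cells, rose from 12.6, 11.4 and 14.4 to 99.8, 99.6 and 121 CPM (log2 fold change 3.08 ± 0.08, adjusted p = 1.5e-18). It stands in a lipid list of which 8 of 34 rose and 15 fell, beside 30.2% higher and 25.9% lower of all tested genes. Among nutrient transporters, Slc16a5, a monocarboxylate transporter, went from 69.4 to 9.58 CPM, log2 -2.87, and Slc30a4, a zinc exporter, from 29.9 to 5.65 CPM, log2 -2.38.

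In the endoplasmic reticulum list 24 of 33 rose and 1, Ssr3, fell, mostly by small amounts (median 0.23). The sensors of the unfolded protein response were its largest rises: Atf6 stood at 11, 9.18 and 11.8 CPM in naive and 56.6, 52.8 and 58.7 CPM in effector cells (log2 fold change 2.41 ± 0.09, adjusted p = 3.3e-17), and Ern1, encoding IRE1, went from 17.7 to 63.1 CPM, log2 1.83. Interferon-induced genes were higher for 31 of 50 and lower for 8, and one family parted: Oas1a, an oligoadenylate synthetase, rose (from 15.4 to 44.3 CPM, log2 1.51), while its relative Oas2 fell (from 86.5 to 25 CPM, log2 -1.80). Chromatin regulators had a median of -0.02, with 15 of 47 higher and 20 lower, beside 30.2% higher and 25.9% lower of all tested genes. Tet1, which oxidises methylcytosine, fell from 60.0, 54.6 and 50.4 to 16, 16.1 and 15.7 CPM (log2 fold change -1.79 ± 0.08, adjusted p = 1.6e-15), and Kdm2b, a histone demethylase, rose (from 31.6 to 87.2 CPM, log2 1.46).

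**Figure D4:**
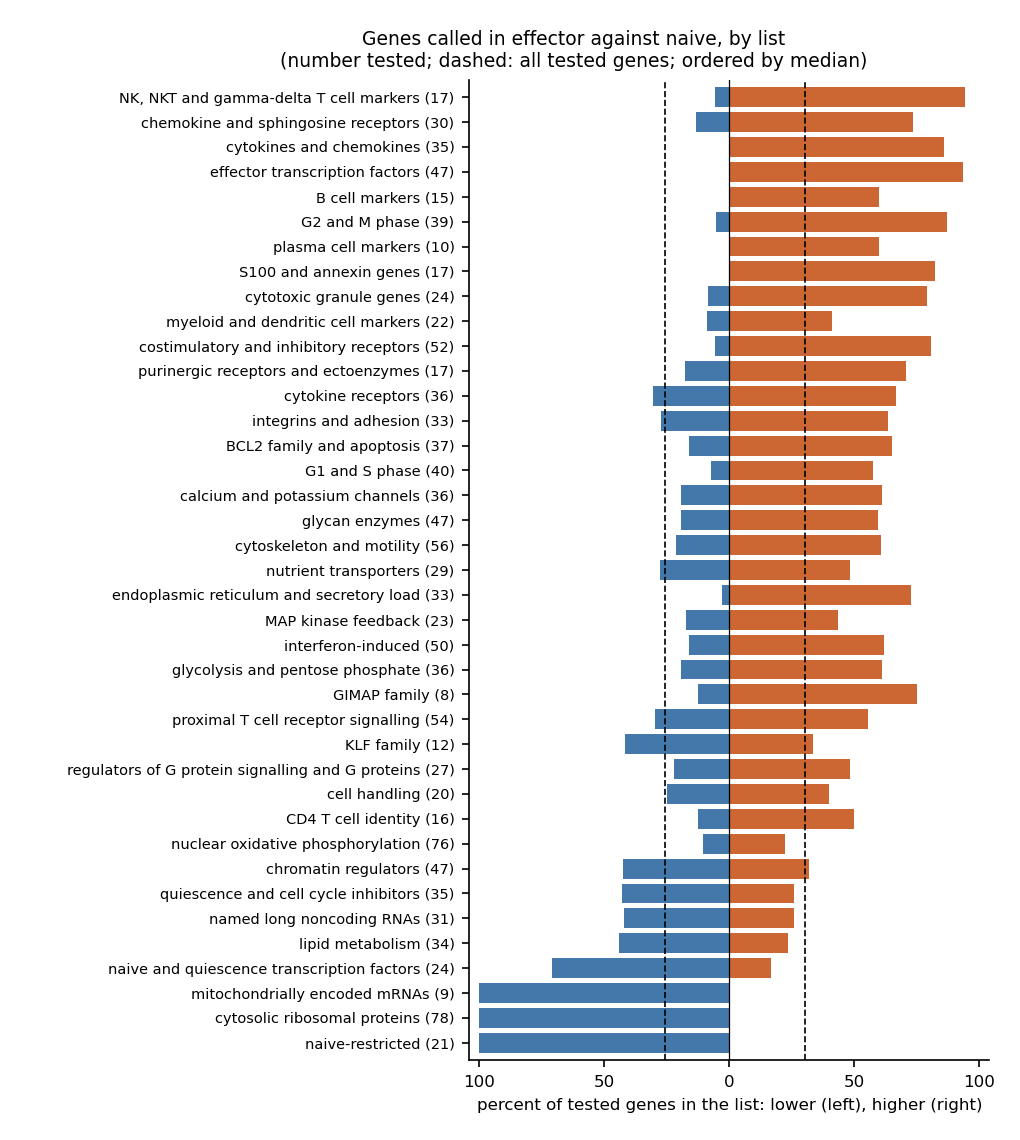
Percent of tested genes called lower (left, blue) and higher (right, orange) in effector cells for 39 lists with at least 8 tested genes (number in brackets), ordered by median log2 fold change, with dashed lines at the 25.9% and 30.2% of all tested genes. Ribosomal, mitochondrial and naive-restricted lists lie wholly to the left, and effector factors, cytokines and S100 with annexin genes have no gene called lower.

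Markers of other cells were read to see what the gates held. The list of markers of NK cells, NKT cells and gamma-delta T cells rose in 16 of 17 tested genes, and its summed level was 20.3 to 24.0 CPM in naive and 318 to 343 CPM in effector libraries. Klrb1c (NK1.1) had 1 naive count and stood at 82.4, 70.5 and 79.3 CPM in effector cells, and Trav11d, a copy of the variable segment of invariant NKT receptors, at 0.894, 1.61 and 0.663 and 21.4, 29.8 and 24.6 CPM (log2 fold change 4.50 ± 0.20, adjusted p = 1.9e-14). All 10 tested gamma chain segments of the T cell receptor rose, with a median log2 fold change of 5.83, and Trgc2, a constant segment, stood at 0.631, 0.645 and 0.663 and 50.005, 53.1 and 51.4 CPM (log2 fold change 6.30 ± 0.17, adjusted p = 5.1e-19). The delta constant gene Trdc went the other way (from 10.6 to 6.67 CPM, log2 -0.66), and Trac, the alpha constant gene, stood at 466 ± 9.94 and 515 ± 12.3 CPM. The part of such cells in the rises of NK receptors, Zbtb16 and granule genes above was not tested.

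B cell markers were higher in 9 of 15 and lower in 0, with a median log2 fold change of 2.05. By more than 2-fold 5 were higher, among them Cd79b, Ighd and Cd22, the largest rise at log2 5.82. The summed level of the list was 629.6 to 647 CPM in naive and 981 to 1158 CPM in effector libraries. Nearly all of that sum was Ighm, at 598, 618 and 584 CPM in naive and 1065, 887 and 939.8 CPM in effector cells, while Cd79a was at 0.999, 1.07 and 0.912 and 0.553, 1.19 and 0.83 CPM. Igkc differed between libraries of one population, at 3.21, 1.88 and 12.4 and 17.3, 22.5 and 31.7 CPM. Of myeloid and dendritic markers 9 of 22 were higher and 2 lower, with a summed level of 292 to 313 CPM in naive and 399.8 to 416 CPM in effector libraries. Cd74, the invariant chain of class II molecules, was among the rises, from 4.26, 4.19 and 6.97 to 52, 38.6 and 44.2 CPM (log2 fold change 3.19 ± 0.27, adjusted p = 4.6e-06), and Lyz2, a myeloid marker, was 2.25 ± 2.81 against 6.35 ± 6.77 CPM and not called (adjusted p = 0.18). Cd8b1 fell (from 19.7 to 6.01 CPM, log2 -1.70). Of 6 erythroid and platelet markers 0 rose and 1 fell, with sums that overlap. The part of other cells in the results was not tested for these lists.

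By the coefficient of variation, effector libraries varied somewhat more among themselves than the naive ones. Among 2158 genes of at least 100 CPM in both populations its median was 3.08% in naive and 4.0% in effector cells. It was higher in effector cells for 63.6% of these genes. That share was 57.3% of 6225 genes of 10 to 100 CPM (medians 4.76% and 5.52%). It was 54.4% of 3175 genes of 1 to 10 CPM (medians 12.9% and 14.3%). Chi-square values per gene between pairs of libraries overlapped, at 2.76 to 4.82 in naive and 3.67 to 5.25 in effector cells. The most variable genes of the effector libraries, chosen after their values were seen, included genes of cytotoxic cells that were lowest in library 4: Cx3cr1, the fractalkine receptor, at 20.6, 49.8 and 65.7 CPM, Gzma at 9.03, 23.7 and 28.3 CPM, and Il18rap as given above. Gzmb, given above, was even. Genes of other kinds were lowest in library 4 too, among them Nhsl2 at 18.4, 27.8 and 41.6 CPM and Dock5 at 35.7, 51.1 and 66.4 CPM. Ttn, encoding titin, was low in library 5 instead, at 69.0, 26 and 72.9 CPM, and Gpm6b was highest in library 4, at 51.5, 38.5 and 28.9 CPM. In naive cells library 3 stood apart for Lars2, a mitochondrial leucyl-tRNA synthetase, at 206, 215 and 473 CPM. It did so too for Mir6236 at 50.9, 53.9 and 138 CPM and for Gm15564 at 52.4, 62.1 and 147 CPM. These genes were also chosen after their values were seen, and the cause was not tested.

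Promoters of risen genes were searched for short motifs in the window from 250 bases before to 50 bases after the start, from RefSeq on GRCm38.p6, on both strands. Of the tested genes 9872 had such a sequence, among them 1181 higher and 215 lower by more than 2-fold. The AP-1 motif TGANTCA, the site of FOS, JUN and BATF proteins, was in 10.2% of promoters of higher genes, 8.84% of lower genes and 5.91% of all. The RUNX motif TGTGGT was in 19.8%, 11.6% and 15.7%, and the CACCC box CCACACCC in 7.20%, 4.65% and 4.59%. The GC box CCGCCC was in 60.6%, 61.9% and 67.2%, and the E2F motif TTTCCCGC in 1.10%, 0.930% and 2.40%. The T-box core GGTGTGA, which shares the letters GGTGTG with the reverse of the CACCC box, was in 4.66%, 4.19% and 4.06%, the TCF and LEF motif CTTTGAA or CTTTGAT in 8.30%, 9.77% and 7.34%, the FOXO motif GTAAACA in 3.81%, 4.65% and 3.13%, and the IRF motif, GAAA at both ends of any 2 bases, in 4.15%, 2.79% and 3.83%. A match is a description of letters and not a bound site, and the median GC content of the classes was 59.7%, 60.3% and 60.7%.

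The 250 bases before the start are shown for listed genes with large rises whose only annotated start has the motif there. Candidates were higher by the over 2-fold test and had at least 20 CPM. Genes of a single chromosome were left out of the candidates, so the rankings and counts below do not cover them. The AP-1 motif was more frequent among higher genes than among all promoters. For it, the 3 candidates with the largest rise are shown, with the match in capitals:
Fgl2, chr5:21372423-21372672, plus strand: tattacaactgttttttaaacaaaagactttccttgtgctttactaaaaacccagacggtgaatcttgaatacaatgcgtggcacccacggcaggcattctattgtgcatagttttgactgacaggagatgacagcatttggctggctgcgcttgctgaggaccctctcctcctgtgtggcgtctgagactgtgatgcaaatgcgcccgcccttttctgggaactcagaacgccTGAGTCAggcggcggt
Ccr4, chr9:114496545-114496794, minus strand: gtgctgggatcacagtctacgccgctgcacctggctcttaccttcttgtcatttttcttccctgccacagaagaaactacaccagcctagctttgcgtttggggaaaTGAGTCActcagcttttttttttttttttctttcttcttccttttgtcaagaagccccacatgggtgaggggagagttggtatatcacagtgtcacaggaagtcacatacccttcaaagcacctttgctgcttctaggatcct
Tnfsf14, chr17:57194182-57194431, minus strand: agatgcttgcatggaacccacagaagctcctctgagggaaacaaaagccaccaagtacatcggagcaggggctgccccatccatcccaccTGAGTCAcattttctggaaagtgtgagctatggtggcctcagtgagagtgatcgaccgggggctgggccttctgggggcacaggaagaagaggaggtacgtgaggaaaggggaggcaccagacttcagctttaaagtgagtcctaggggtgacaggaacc
Of the 101 candidates, 14 had the AP-1 motif in these 250 bases and 24 the RUNX motif. The share of all tested genes in this shorter window was not computed. The shares given above are for a longer window and any annotated start, so they cannot be set beside these counts. For the RUNX motif the 2 candidates with the largest rise are shown, again with the match in capitals:
Klrb1c, chr6:128788642-128788891, minus strand: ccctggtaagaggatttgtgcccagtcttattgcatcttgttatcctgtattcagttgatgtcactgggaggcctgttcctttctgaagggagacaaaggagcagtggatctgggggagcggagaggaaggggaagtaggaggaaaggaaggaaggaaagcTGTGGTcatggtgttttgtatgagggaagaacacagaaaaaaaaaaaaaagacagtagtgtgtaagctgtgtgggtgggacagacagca
Cxcr6, chr9:123806227-123806476, plus strand: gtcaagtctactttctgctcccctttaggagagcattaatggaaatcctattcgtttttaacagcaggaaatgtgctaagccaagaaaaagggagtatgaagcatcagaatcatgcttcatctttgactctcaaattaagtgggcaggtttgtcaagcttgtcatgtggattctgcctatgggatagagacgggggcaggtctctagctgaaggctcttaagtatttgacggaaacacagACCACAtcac
The AP-1 match begins 16 bases before the start of Fgl2, 143 before that of Ccr4 and 160 before that of Tnfsf14. The RUNX match begins 89 bases before the start of Klrb1c and, on the opposite strand, 10 before that of Cxcr6. Their levels are given above with the granule, homing and cytokine genes and with the markers of other cells.

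The same comparison in Rinl-KO libraries, which share no library with it, was set beside it. In KO cells 9281 genes (58.4%) were called and 2165 (13.6%) passed the over 2-fold test. Of the 1990 genes past that test in WT, 1988 had the same sign in KO, 1974 were also called there in the same direction, and 1817 also passed the over 2-fold test, which is 91.3% of the WT genes and 83.9% of the KO genes. Across 11394 genes of at least 5 CPM the log2 fold changes correlated at Pearson r of 0.979, a description over genes that are not independent. Rinl checked the labels: it stood at 33.0 ± 1.17 CPM in KO naive and 47.6 ± 1.80 CPM in KO effector libraries, against 294 ± 7.58 and 450.0 ± 12.8 CPM in WT.

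The difference between the effector effects of KO and WT, tested over all genes, was called for 23 genes (0.145%), with 20 negative and 3 positive. Myo1f, a myosin of leukocyte adhesion, had a log2 fold change of 8.36 in WT and 6.77 in KO (difference -1.59 ± 0.22, adjusted p = 7.4e-04). Its naive level was low, with means of 0.789 CPM in WT and 1.97 CPM in KO, against 260 and 215 CPM in effector cells. Ctsw, a cathepsin of cytotoxic cells, had log2 fold changes of 1.35 in WT and 0.72 in KO (difference -0.63 ± 0.09, adjusted p = 0.0027). Hopx, a cofactor of lasting effector cells, had 3.0 and 2.44 (difference -0.56 ± 0.11, adjusted p = 0.041). Vipr1, which fell in both, had -2.68 and -3.25 (difference -0.57 ± 0.08, adjusted p = 0.0016). The smallest p belonged to Fbxo27, which lies on chromosome 7, 28692849 to 28699338, plus strand (GRCm38), near Rinl on chromosome 7, 28788969 to 28798963, plus strand: it was at 1.90 ± 0.295 CPM in WT naive and 11.8 ± 2.03 in WT effector cells, against 19.5 ± 1.49 and 14.4 ± 0.987 CPM in KO. The count rested on single libraries, since it was 85 without effector library 4, 11 without naive library 2 and 14 without effector library 6.

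**Figure D5:**
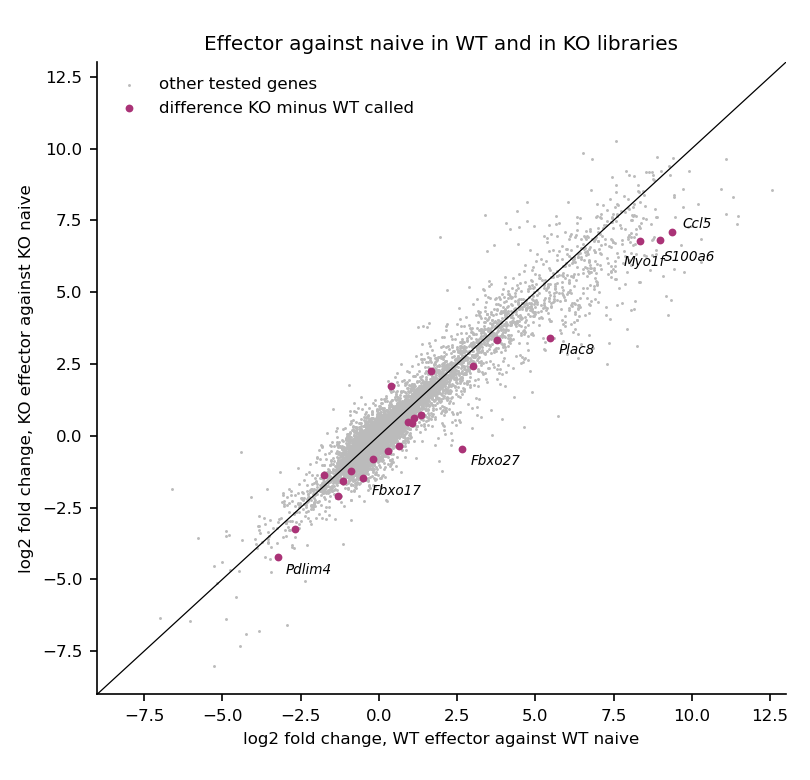
Log2 fold change of effector against naive cells in WT (x) and in KO libraries (y) for 15905 tested genes, with the 23 genes whose difference was called in purple and the line of equal change. Most genes lie along the line, and 20 of the 23 called genes lie below it.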

How the data were processed

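Per the labels' protocols, the kit was stranded and selected poly(A) RNA of the sorted cells. One deposited table holds raw counts per gene, per the file headers, and a second deposited table holds FPKM, which per the file headers are scaled by gene length and size factor. The submitters' processing notes name Picard, STAR, DESeq2 1.30.0 and, as builds, GRCm38 and mm10. The sources used here do not give the counter or its strand setting, so a gene and an overlapping or near-identical one may share reads. Columns show the group of each library and no replicate number.

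In R 4.3.3, edgeR 4.0.16 (filterByExpr, TMM, 1 robust quasi-likelihood fit of all 12 libraries with a coefficient per group) tested 15905 of 55487 genes. Adjusted p-values are Benjamini-Hochberg values over all tested genes at 0.05. The biological coefficient of variation was 5.21%, and chi-square values of 2.76 to 5.25 per gene between same-group libraries exceeded sampling noise. The fits were tested on simulated data. Alternatives used limma 3.58.1, DESeq2 1.42.0, other filters, the FPKM values on a log2 scale with 1 or 0.1 added, and libraries left out. CPM per library are TMM-scaled counts.

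The comparison, the 42 gene lists (1226 of 1383 symbols tested) and the rules were chosen with earlier results of these data known. A gene can stand in several lists, and lists were described by counts and medians without a set test. Named genes were taken, with some left out or not reported here, from the 20 largest rises and falls past the over 2-fold test with at least 20 CPM, up to 6 members of each list with the largest change (at least 5 CPM) and up to 3 with the smallest (at least 50 CPM), a fixed set (among them Cd44, Cd4, Cd3e, Rinl, Il7r, Klf2, S1pr1, Tcf7, Bcl2, Myc), the 10 smallest p-values of the difference KO minus WT, the 10 highest FPKM of each group, and genes switched on or off. Chosen after their values were seen were Actn1, B230118H07Rik, Bcl2l1, Capg, Ccr4, Ccr9, Cd247, Cd79a, Cebpa, Cmah, Csf1, Cst7, Cxcr1, Dgka, Gas5, Gpr15, Id2, Ifng, Ifngr1, Ifngr2, Igkc, Ikzf2, Il10, Il12rb2, Il18r1, Il21, Il6ra, Itga6, Itgal, Kcna3, Lars2, Lyz2, Maf, Prf1, Rora, S1pr2, Snhg1, Snhg12, Snhg8, Srgn, Ssr3, St8sia6, Tec, Tgfbr3, Thy1, Tnfrsf4, Tnfrsf9, Tnfsf11, Trac, Trdc, Trgc2, Ttn and Zeb2.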

Additional observations from a re-analysis of the deposited data

Results flagged for a closer look

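The effect of the effector state differed between KO and WT libraries for 23 genes by the test of the difference itself (edgeR, adjusted over all tested genes). The log2 differences, KO minus WT, were Fbxo27 -3.11, Fbxo17 -0.99, Arsb -0.62, Myo1f -1.59, Vipr1 -0.57, Ctsw -0.63, Jaml -0.82, Gm45552 -0.45, Glipr2 -0.49, Pdlim4 -0.99, Il2rb -0.44, Ccl5 -2.25, Lad1 -1.0, S100a6 -2.15, 1700025G04Rik -0.80, Golm1 -0.45, Sema4a -0.62, Plac8 -2.06, Galnt10 -0.35 and Hopx -0.56 where negative and St8sia1 0.39, Gm42031 1.37 and Zfp862-ps 0.57 where positive. In Fbxo27, Jaml and Lad1 the effect had opposite signs in WT and KO. Several of the largest differences belonged to genes of low naive level. Ccl5 had means of 0.415 CPM in WT naive and 1.52 CPM in KO naive cells, against 268 and 206 CPM in effector cells. In the same order S100a6 had 0.269 and 1.02 CPM against 135 and 117 CPM, and Plac8 0.733 and 1.88 CPM against 30.1 and 20.4 CPM. In all, 1461 genes had an unadjusted p under 0.05.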

How the results depend on the processing

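The number of genes called for effector against naive WT cells ran from 6815 (genes with a mean of at least 5 CPM only) to 9520 (no filter on low counts), and the over 2-fold calls were 84.1% higher against 80.6% to 87.0% under the alternatives. The over 2-fold count of 1990 (1673 higher, 317 lower) moved to 859 (692 and 167) with genes of at least 5 CPM, where fewer genes were tested, and to 808 (677 and 131) with FPKM plus 1, which shrinks changes of low genes. It held 211 lower genes with DESeq2 and 212 with FPKM plus 0.1. Leaving out 1 library gave 1911 to 2037. The difference KO minus WT, 23 genes, was the least stable count: 52 with DESeq2, 277 without a filter, 13 with FPKM plus 1, 8 with FPKM plus 0.1, and 11 to 85 without 1 library; the cause was not tested. Without the 10 most abundant genes in the library total the mitochondrial share differed by -0.184 percentage points, where the shares with them are 1.52% and 1.10%. No scaling moved the median of all genes by over 0.1 on the log2 scale. No paired analysis was possible because the column names carry no replicate number of the labels. Uncalled genes near no change crossed 0 on the log2 scale: Actb (-0.00) was 0.014 with genes of at least 5 CPM, 0.002 with the 6 WT libraries alone, 0 with FPKM plus 1, 0 with FPKM plus 0.1, -0.045 to 0.043 without 1 library. Anxa5 (-0.03) was -0.065 to 0.017 without 1 library. Cd4 (-0.01) was 0.008 with genes of at least 5 CPM, -0.036 to 0.032 without 1 library. Cdkn1b (-0.00) was 0 with limma-voom, 0.014 with genes of at least 5 CPM, 0.001 with the 6 WT libraries alone, -0.032 to 0.039 without 1 library. Lat (0.00) was -0.006 with no filter, -0.025 to 0.019 without 1 library. Selplg (-0.04) was -0.067 to 0.004 without 1 library.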

Other observations

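Of 1183 tested long noncoding RNAs, 259 were higher and 261 lower in effector cells, beside 30.2% higher and 25.9% lower of all tested genes. Of 31 named long noncoding RNAs 8 were higher, 13 lower and 10 not called. Host genes of small nucleolar RNAs among them that fell included Snhg1, which went from 59.4 to 32.3 CPM, log2 -0.88, Snhg8 from 27.4 to 15.1 CPM, log2 -0.87, Snhg12 from 36 to 20.5 CPM, log2 -0.82 and Gas5 from 157 to 105 CPM, log2 -0.58. Miat had 0 naive and 421 effector counts, at least 147-fold higher. Of 8 GIMAP genes, GTPases of lymphocyte survival, 6 rose and 1, Gimap6, fell (log2 -0.12), although 3 rose without naive library 2, with Gimap7 at 66.4, 58 and 65.5 CPM in naive and 165, 167 and 167 CPM in effector cells (log2 fold change 1.40 ± 0.05, adjusted p = 2.9e-17).

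Of 94 alpha variable segments of the T cell receptor 17 were lower and 5 higher, and of 23 beta segments 10 were lower and 3 higher, where 25.9% of all tested genes were lower and 30.2% higher. Immunoglobulin genes were higher in 13 of 31 cases and lower in 0, and took 0.0603% of counts in naive and 0.108% in effector libraries. Plasma cell markers were higher in 6 of 10, among them Prdm1, encoding BLIMP1, which went from 10.9 to 42.7 CPM, log2 1.95 and is also made by effector T cells. Cell handling genes were higher in 8 and lower in 5 of 20, with Egr2, an early gene of receptor signalling, going from 12.6 to 48.4 CPM, log2 1.94.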
